A study of Mus musculus with 12 samples.

Results

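The genes described here are the heavy chains, the light chain and a transactivator of major histocompatibility complex (MHC) class I: 9 genes of the 55421 in the table, picked by symbol. They are the classical heavy chains H2-K1 and H2-D1, the non-classical heavy chains H2-T23, H2-Q4, H2-Q6, H2-Q7 and H2-M3, the light chain gene B2m, and Nlrc5. All 9 passed the low-count filter, which left 18108 genes to test.

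A class I molecule is a heavy chain joined to beta-2-microglobulin, the product of B2m, and it holds a short peptide on the cell surface. The classical heavy chains H-2K and H-2D show peptides from the cell's own proteins to CD8+ T cells, whereas the non-classical ones present narrower sets of ligands and several are read by natural killer or innate-like T cells. Nlrc5 is an interferon-inducible protein that joins a set of DNA-bound factors at class I promoters, and interferons raise the whole pathway in many cell types, tumour cells among them.

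RNA came from MOC2, a mouse oral squamous carcinoma cell line grown in vitro, in a 2 by 2 design that served the study's question of what extracellular vesicles (EVs) of senescent tumour cells contribute. The derivative MOC2-25 was labelled EV-Proficient and the derivative MOC2-27 EV-Deficient, after a genetic block of vesicle release whose gene the labels do not name. Each was sampled with DMSO and after 600 nM paclitaxel, a microtubule-stabilising drug used here to bring on senescence, for 48 h, with 3 libraries per group and 12 in all. Each EV label stands on 1 derivative line, so label and line cannot be told apart, and nothing in the labels says that replicates were separate cultures, so p-values measure the spread between these samples, which may be technical.

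Library totals ran from 23263472 to 62955757 counts. A row that the authors named dngfr, which the labels do not explain, averaged 8.99 CPM (counts scaled to library size) in DMSO and 3.24 CPM in paclitaxel libraries labelled EV-proficient, and 2.15 CPM in DMSO and 10.9 CPM in paclitaxel libraries labelled EV-deficient. Its high groups thus carry different EV labels, and every direction between EV labels below is given as labelled. Whether a pair of groups carries exchanged EV labels could not be settled from these files. An exchange would change the fold changes within each label and the interaction as well as the directions between labels, but not the paclitaxel effect averaged over both labels. Of 9 squamous epithelial markers 7 reached 1 CPM in a library, but Krt5 and Trp63, which define basal keratinocytes, stayed below 0.181 CPM in all 12. The 8 leukocyte markers summed to between 1.53 and 14.9 CPM, and fibroblast and endothelial markers to at most 8.84 and 4.35 CPM; their values by group stand beside the interaction. In bulk RNA a change per cell and a change in the share of cells cannot be told apart.

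The 7 heavy-chain genes lie on chromosome 17 (GRCm38, the build the submitters' processing notes name). The outermost were H2-K1, at 33996017 to 34000347 on the minus strand, and H2-M3, at 37270220 to 37274484 on the plus strand. B2m lies on chromosome 2 at 122147686 to 122153083 and Nlrc5 on chromosome 8 at 94434356 to 94527272, both on the plus strand, and all 9 are annotated as protein coding.

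Promoter windows of 250 bases before to 50 bases after the start (RefSeq, GRCm38.p6) were found for 8 of the 9 genes; Nlrc5 had no entry. The windows of H2-K1 (a classical gene), H2-T23 (of the 5 non-classical genes described here, the one with the highest mean level per kilobase under paclitaxel), H2-Q7 and B2m are shown, because the RNA of these 4 genes moved in different ways under the same drug. In EV-deficient against EV-proficient libraries H2-Q7 was higher with DMSO and lower with paclitaxel, while H2-K1, H2-D1 and B2m went the other way. The 4 windows lie at chr17:34000298-34000597 (minus strand), chr17:36032652-36032951 (minus strand), chr17:35438905-35439204 (plus strand) and chr2:122147437-122147736 (plus strand). Each is written 5′ to 3′ on the gene's strand. Capitals mark matches on either strand to the CCAAT box (CCAAT), the CRE half-site (TGACG), an interferon regulatory factor (IRF) motif (AANNGAAA) and the NF-kB consensus.
H2-K1: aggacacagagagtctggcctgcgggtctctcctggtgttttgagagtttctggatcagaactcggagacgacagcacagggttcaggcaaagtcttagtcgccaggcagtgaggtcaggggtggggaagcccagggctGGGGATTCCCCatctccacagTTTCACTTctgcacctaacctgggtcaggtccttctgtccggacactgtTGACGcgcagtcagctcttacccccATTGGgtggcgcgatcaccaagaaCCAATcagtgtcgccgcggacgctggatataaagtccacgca
H2-T23: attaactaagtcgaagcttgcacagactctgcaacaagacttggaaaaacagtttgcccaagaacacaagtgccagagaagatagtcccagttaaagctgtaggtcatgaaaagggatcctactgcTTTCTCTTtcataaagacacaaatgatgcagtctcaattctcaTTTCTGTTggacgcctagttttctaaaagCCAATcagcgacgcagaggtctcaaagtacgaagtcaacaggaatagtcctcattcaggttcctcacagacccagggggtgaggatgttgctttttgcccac
H2-Q7: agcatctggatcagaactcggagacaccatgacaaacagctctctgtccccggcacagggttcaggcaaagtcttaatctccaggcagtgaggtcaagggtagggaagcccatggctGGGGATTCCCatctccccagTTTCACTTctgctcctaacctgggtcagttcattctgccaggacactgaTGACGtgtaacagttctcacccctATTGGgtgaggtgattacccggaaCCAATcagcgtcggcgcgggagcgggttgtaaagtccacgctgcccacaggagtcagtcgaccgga
B2m: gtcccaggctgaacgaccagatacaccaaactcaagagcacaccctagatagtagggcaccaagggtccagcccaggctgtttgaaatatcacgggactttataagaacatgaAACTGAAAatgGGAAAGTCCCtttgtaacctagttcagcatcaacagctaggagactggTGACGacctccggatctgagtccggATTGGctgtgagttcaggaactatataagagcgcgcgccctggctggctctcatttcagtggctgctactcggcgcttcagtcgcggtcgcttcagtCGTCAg

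Reading left to right, the H2-K1 and H2-Q7 windows hold an NF-kB match, a reversed IRF match, a CRE half-site and then a reversed and a forward CCAAT box. H2-T23 holds 2 reversed IRF matches and 1 CCAAT box, with no match to the NF-kB consensus or the CRE half-site. In B2m the IRF match comes before the NF-kB match, followed by a CRE half-site and a reversed CCAAT box before the start and a reversed CRE half-site after it. Over the 8 windows, the CCAAT box and the IRF motif occurred in 8, the NF-kB consensus in 7 (all but H2-T23) and the CRE half-site in 6 (all but H2-T23 and H2-Q6). Among 27025 promoter windows of this length, 37.9% held the CCAAT box, 24.2% the IRF motif, 8.18% the NF-kB consensus and 21% the CRE half-site. Matches of the NF-kB consensus can overlap one another, and in H2-M3 one overlaps a CCAAT box. As background, class I promoters are known for an NF-kB and an IRF element upstream of the boxes where the Nlrc5-containing complex assembles; a match here describes the letters only.

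**Figure D1:**
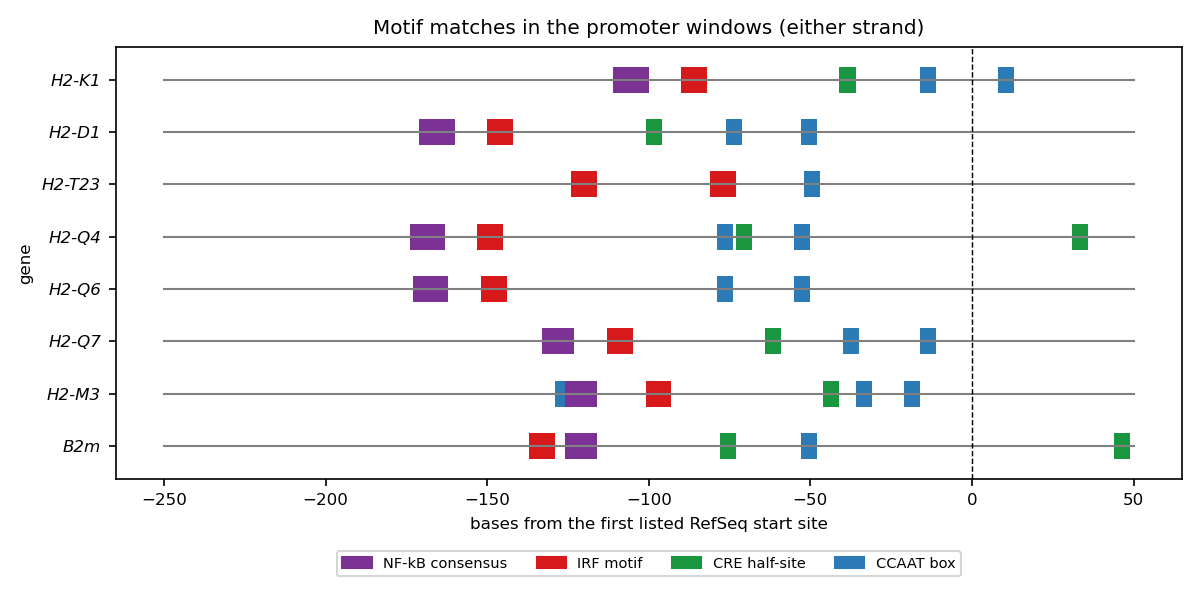
Motif matches in the 8 promoter windows. The x axis is the distance in bases from the first listed RefSeq start site, each line is 1 gene and each coloured block 1 match on either strand; the 8 genes share the CCAAT box and the IRF motif, while H2-T23 has neither of the other motifs and H2-Q6 lacks the CRE half-site.

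With paclitaxel the 5 non-classical heavy chains, B2m and Nlrc5 rose in EV-proficient cells, while neither classical heavy chain passed the test there. In EV-deficient cells the classical genes rose too, by 1.46-fold for H2-K1 and 1.62-fold for H2-D1. In EV-proficient cells 7 of the 9 genes were higher and 0 lower, where 31.1% of all tested genes were higher and 27.1% lower (edgeR quasi-likelihood test, Benjamini-Hochberg adjusted p under 0.05). In EV-deficient cells 8 of 9 were higher and 0 lower, against 32.4% and 30.5% of all genes (40.5% and 23.4% with upper-quartile scaling). The median log2 fold change over the 9 genes was 1.5 in EV-proficient and 1.12 in EV-deficient cells, and over all tested genes it was 0.05 and 0.07.

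Setting the EV labels aside by averaging their paclitaxel effects gives a value that is the same whichever DMSO group is set against whichever paclitaxel group. On this average 9 of 9 genes were higher and 0 lower, where 37.1% of all tested genes were higher and 31.3% lower. The average log2 fold change was 0.22 ± 0.05 (SE) for H2-K1 and 0.37 ± 0.04 for H2-D1, and their median, 0.29, stood against 2.24 for the 5 non-classical genes and 0.07 for all tested genes. With the EV labels of the DMSO groups exchanged, an alternative added after seeing the data, all 9 genes passed the edgeR test as higher with paclitaxel under both labels. The share of all tested genes higher in that fit is not reported here. With the labels as deposited it was 31.1% in EV-proficient and 32.4% in EV-deficient cells. That H2-K1 and H2-D1 in EV-proficient cells and H2-Q7 in EV-deficient cells missed the threshold holds for the labels as deposited.

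**Figure D2:**
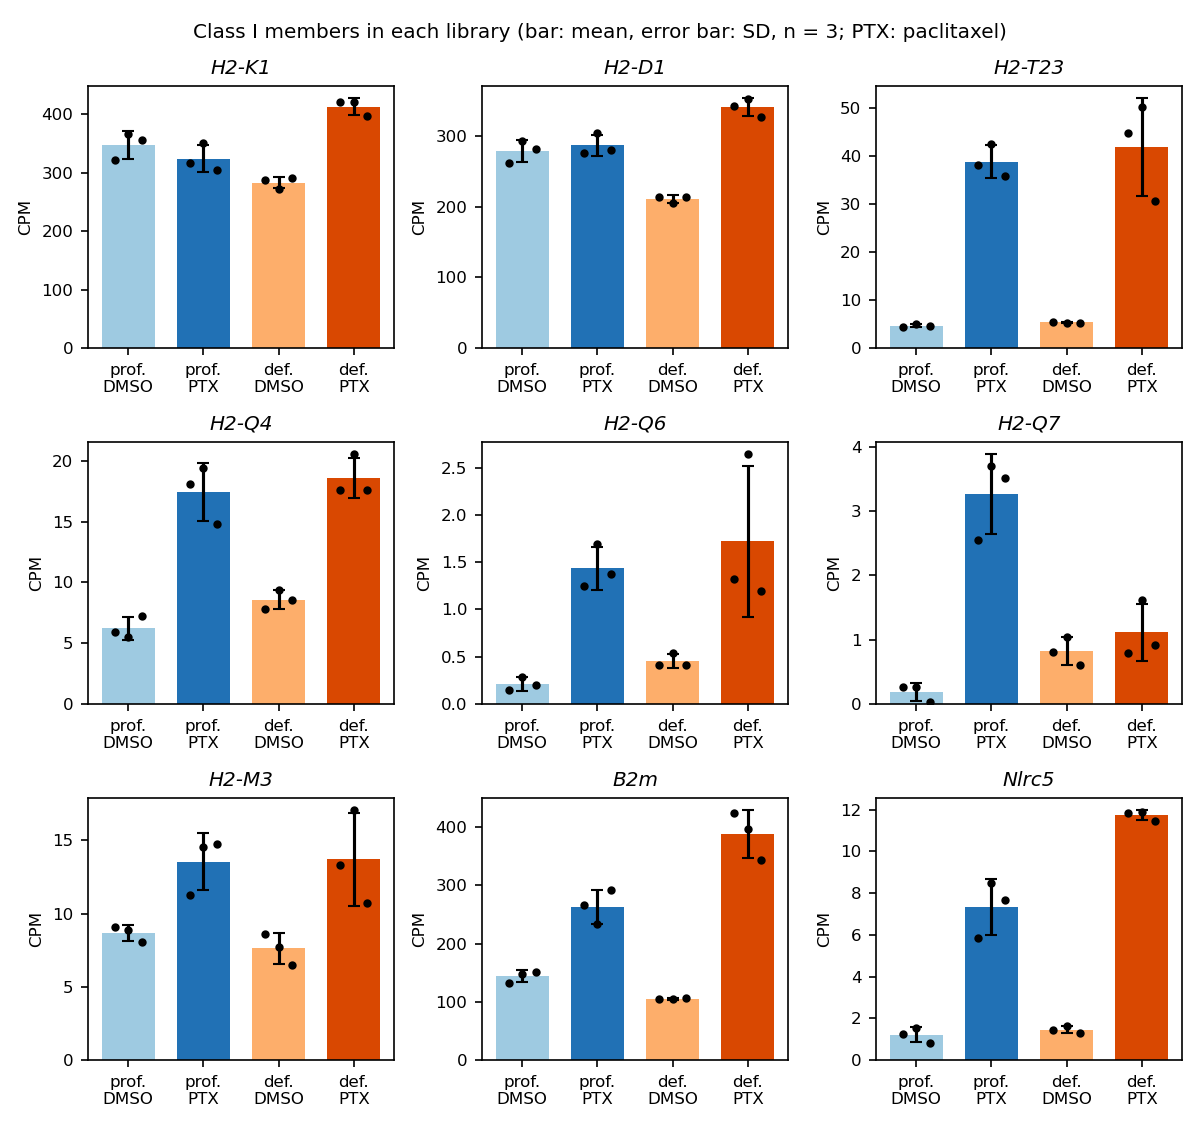
CPM of each of the 9 genes in each library. Bars are group means, error bars SD (n = 3), points single libraries, and each panel has its own y axis from 0. The 6 paclitaxel libraries sit above the 6 DMSO libraries for H2-T23, H2-Q4, H2-Q6, H2-M3, B2m and Nlrc5, and overlap with them for H2-K1, H2-D1 and H2-Q7. How many of all tested genes separate in this way was not counted. On the averaged paclitaxel effect 37.1% of them were called higher and 31.3% lower.

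H2-K1 encodes the H-2K heavy chain. Its EV-proficient libraries held 321.4, 366.3 and 355.8 CPM with DMSO and 317.5, 350.2 and 304.8 CPM with paclitaxel. In EV-deficient libraries it was at 286.8, 272.2 and 290.7 CPM with DMSO and at 420.6, 421.7 and 396.6 CPM with paclitaxel. The EV-proficient groups overlapped, whereas each EV-deficient paclitaxel library lay above every other library of the study. The log2 fold change by paclitaxel was -0.10 ± 0.06 (SE; edgeR quasi-likelihood adjusted p = 0.19) in EV-proficient and 0.54 ± 0.06 (adjusted p = 1.9e-07) in EV-deficient cells. Without EV-proficient paclitaxel replicate 2, the first of these was -0.22 and passed the test (edgeR adjusted p = 0.0096).

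H2-D1 encodes the H-2D heavy chain. With DMSO it was at 261.8, 292.7 and 281.7 CPM in EV-proficient and at 213.2, 204.3 and 213.5 CPM in EV-deficient libraries. With paclitaxel the values were 276.1, 303.9 and 279.9 CPM in EV-proficient and 342.5, 351.5 and 327.2 CPM in EV-deficient libraries. Again the EV-deficient paclitaxel libraries were the highest and the EV-deficient DMSO libraries the lowest of the 12, with the EV-proficient groups overlapping between them. The log2 fold change by paclitaxel was 0.04 ± 0.06 (SE; edgeR quasi-likelihood adjusted p = 0.58) in EV-proficient and 0.69 ± 0.06 (adjusted p = 1.6e-09) in EV-deficient cells.

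Among the non-classical genes, H2-T23 encodes Qa-1, which binds the leader peptide of classical class I chains and is read by the CD94-NKG2A receptor of natural killer cells. It was at 4.31, 5.03 and 4.57 CPM in EV-proficient and at 5.43, 5.28 and 5.24 CPM in EV-deficient DMSO libraries. With paclitaxel it reached 38.0, 42.5 and 35.8 CPM in EV-proficient and 44.7, 50.2 and 30.6 CPM in EV-deficient libraries. The 6 paclitaxel libraries all lay above the 6 DMSO libraries, and the EV labels overlapped under paclitaxel. The rise was 8.37-fold in EV-proficient cells (log2 3.07 ± 0.15 SE, edgeR quasi-likelihood adjusted p = 3.6e-13) and 7.85-fold in EV-deficient cells (log2 2.97 ± 0.14, adjusted p = 1.7e-13).

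H2-Q4 is another non-classical chain, of the Q region. Its DMSO libraries ran from 5.48 to 7.23 CPM (EV-proficient) and from 7.78 to 9.38 CPM (EV-deficient), and its paclitaxel libraries from 14.8 to 19.4 and from 17.6 to 20.5 CPM. All 6 paclitaxel libraries were above all 6 DMSO libraries. The log2 fold change was 1.5 ± 0.13 (SE) in EV-proficient and 1.12 ± 0.12 in EV-deficient cells (edgeR quasi-likelihood adjusted p = 2.5e-09 and 7.9e-08).

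H2-M3, which presents N-formylated peptides of bacterial or mitochondrial origin, had the smallest rise of these 5 non-classical genes in EV-proficient cells. It ran from 6.51 to 9.11 CPM over the 6 DMSO libraries and from 10.8 to 17.0 CPM over the 6 paclitaxel libraries, without overlap. Its log2 fold change was 0.63 ± 0.15 (SE) in EV-proficient and 0.84 ± 0.15 in EV-deficient cells (edgeR quasi-likelihood adjusted p = 0.0013 and 5.4e-05).

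H2-Q6 and H2-Q7 both encode Qa-2, a lipid-anchored class I molecule, and were the least abundant heavy chains of the 7 per kilobase of transcript. H2-Q6 had 6 to 12 counts per EV-proficient library with DMSO and 34 to 96 with paclitaxel, and 19 to 26 per EV-deficient library with DMSO and 71 to 122 with paclitaxel. Its rise was 6.68-fold in EV-proficient and 3.74-fold in EV-deficient cells (log2 2.74 ± 0.41 and 1.90 ± 0.36 SE, edgeR quasi-likelihood adjusted p = 5.9e-06 and 8.6e-05). In CPM its paclitaxel libraries did not overlap with its DMSO libraries.

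H2-Q7 had 11, 11 and 1 counts in EV-proficient DMSO libraries and 129, 211 and 87 in EV-proficient paclitaxel libraries. In EV-deficient libraries it had 45, 50 and 28 counts with DMSO and 43, 75 and 56 with paclitaxel. The EV-proficient groups were far apart, whereas the EV-deficient groups overlapped in CPM. The rise was 16.6-fold in EV-proficient cells (log2 4.05 ± 0.44 SE, edgeR quasi-likelihood adjusted p = 6.9e-08), and the log2 fold change in EV-deficient cells was 0.43 ± 0.37 (adjusted p = 0.32). With H2-Q6 and H2-Q7 counted as 1 feature, the log2 fold change in EV-deficient cells was 1.14 and passed the test (edgeR adjusted p = 0.0016). H2-Q7 reads are uncertain: of its 50-base transcript windows 25.1% also occur in another H2 gene, most often H2-Q10, and of those of H2-Q6 27% do, most often in H2-Q7. For H2-K1, H2-D1, H2-T23 and H2-Q4 the share was 9.63 to 16.5%, for H2-M3 0.576%, and for B2m and Nlrc5 0.

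B2m, the light chain that every heavy chain here pairs with, rose under both labels. It was at 132.9, 148.5 and 151.7 CPM in EV-proficient DMSO and at 265.8, 233.4 and 291.5 CPM in EV-proficient paclitaxel libraries. In EV-deficient libraries it went from 104.6, 104.5 and 107.2 CPM with DMSO to 423.6, 396.9 and 344.1 CPM with paclitaxel. None of the 4 groups overlapped with another. The rise was 1.82-fold in EV-proficient and 3.68-fold in EV-deficient cells (log2 0.87 ± 0.08 and 1.88 ± 0.08 SE, edgeR quasi-likelihood adjusted p = 7.8e-09 and 6.1e-14).

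Nlrc5, the class I transactivator, was scarce with DMSO, at 1.27, 1.53 and 0.820 CPM in EV-proficient and 1.45, 1.65 and 1.29 CPM in EV-deficient libraries. With paclitaxel it was at 5.87, 8.47 and 7.69 CPM in EV-proficient and at 11.8, 11.9 and 11.5 CPM in EV-deficient libraries. The DMSO groups overlapped, and with paclitaxel all EV-deficient libraries were above the EV-proficient ones. It rose 6.01-fold in EV-proficient and 8.0-fold in EV-deficient cells (log2 2.59 ± 0.20 and 3.00 ± 0.19 SE, edgeR quasi-likelihood adjusted p = 3.9e-10 and 1.2e-11). Whether the counts were assigned by strand is not given in the sources used here, and H2-T23, H2-Q4, B2m and Nlrc5 each overlap a gene on the opposite strand, so reads of such pairs may not be separated.

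**Figure D3:**
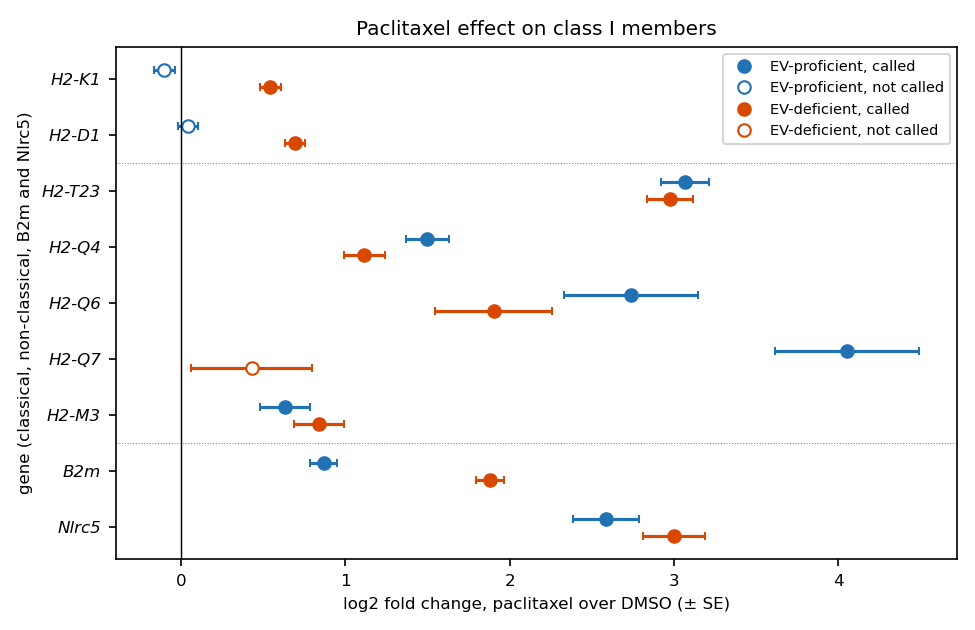
Log2 fold change of paclitaxel over DMSO for the 9 genes in each EV label. Points are edgeR estimates, bars SE, and open points did not pass the adjusted threshold of 0.05; the open points are H2-K1 and H2-D1 in EV-proficient cells and H2-Q7 in EV-deficient cells.

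Per transcript length, the classical genes held most of the RNA of these 7 heavy chains in every library. H2-K1 and H2-D1 together averaged 226.5 ± 14.1 CPM per kilobase (SD, n = 3) in EV-proficient DMSO and 221.5 ± 13.6 in EV-proficient paclitaxel libraries. They averaged 178.0 ± 5.3 in EV-deficient DMSO and 272.5 ± 9.5 in EV-deficient paclitaxel libraries. The 5 non-classical genes summed to 10.2 ± 0.09 and 31.0 ± 2.6 CPM per kilobase in EV-proficient, and to 10.9 ± 0.75 and 32.3 ± 6.6 in EV-deficient libraries, with DMSO and paclitaxel in that order. The non-classical sum was thus close to 3 times as high with paclitaxel under both labels, while the classical sum differed by group.

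The classical share of the 7 genes' summed CPM per kilobase was 95.7% ± 0.28 (SD, n = 3) in the EV-proficient and 94.2% ± 0.50 in the EV-deficient libraries with DMSO. With paclitaxel it was 87.7% ± 0.30 and 89.5% ± 1.6. Each of the 6 paclitaxel libraries had a lower classical share (87.5 to 91.1%) than any DMSO library (93.8 to 95.9%). H2-T23 made up 15.7% ± 1.2 and 17.0% ± 1.1 of the non-classical sum with DMSO, and 43.3% ± 1.8 and 44.7% ± 3.3 with paclitaxel.

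With DMSO, H2-M3 was the most abundant per kilobase of the 5 non-classical genes described here (6.05 ± 0.38 CPM per kilobase in EV-proficient and 5.31 ± 0.74 in EV-deficient libraries), ahead of H2-Q4 (2.39 ± 0.35 and 3.31 ± 0.31) and H2-T23 (1.60 ± 0.13 and 1.84 ± 0.03). With paclitaxel H2-T23 came first of the 5 (13.4 ± 1.2 and 14.5 ± 3.5), before H2-M3 (9.42 ± 1.4 and 9.53 ± 2.2) and H2-Q4 (6.71 ± 0.92 and 7.16 ± 0.64). In the EV-deficient paclitaxel libraries the ranges of H2-T23 and H2-M3 overlapped, as did those of H2-M3 and H2-Q4; in the other groups these 3 genes did not overlap. H2-Q6 and H2-Q7 stayed under 1.27 CPM per kilobase in every library. B2m per summed heavy chain was 0.709 ± 0.021 and 0.649 ± 0.014 with DMSO and 1.22 ± 0.20 and 1.48 ± 0.11 with paclitaxel, EV-proficient first. With the longest transcript as length, an alternative added after seeing the data, the ratio was 0.511 and 0.468 with DMSO and 0.903 and 1.08 with paclitaxel, so whether it passed 1 in EV-proficient paclitaxel libraries depended on the length used.

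**Figure D4:**
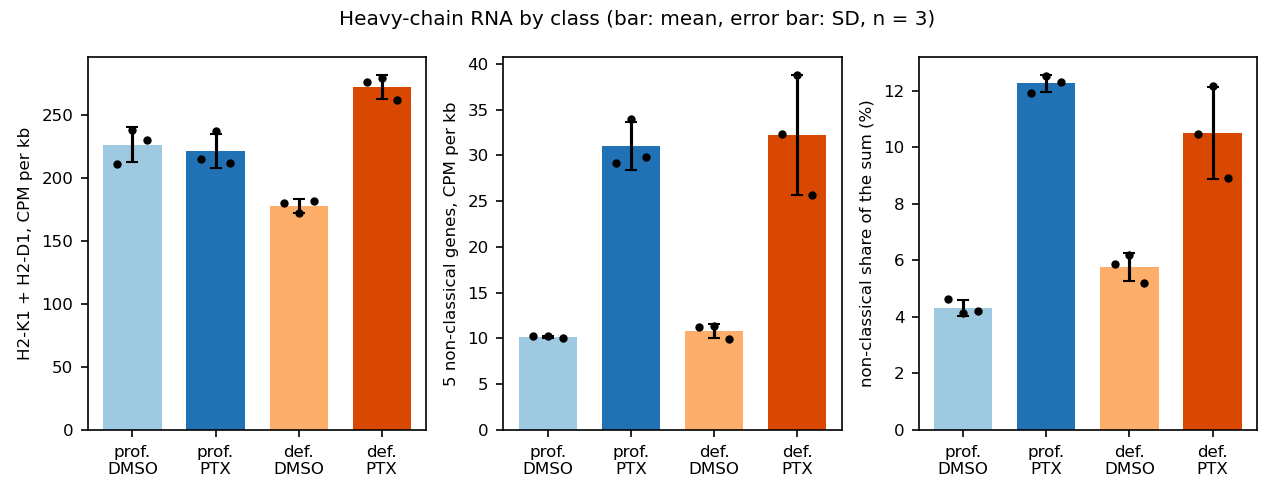
Heavy-chain RNA by class in each library. The y axes give the summed CPM per kilobase of H2-K1 and H2-D1, that of the 5 non-classical genes, and the non-classical share of both in percent; bars are means, error bars SD (n = 3), points libraries, and the share lies between 4.12 and 6.18% with DMSO and between 8.92 and 12.5% with paclitaxel.

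The EV labels were then compared within each treatment. With DMSO, the classical heavy chains and B2m were lower in the libraries labelled EV-deficient, and H2-Q4 and H2-Q7 were higher. With paclitaxel the classical genes, B2m and Nlrc5 were higher in the libraries labelled EV-deficient, and H2-Q7 was lower. These comparisons use the same 12 libraries as the paclitaxel effects above, so the 4 sets of values are tied to one another.

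With DMSO, 2 of the 9 genes were higher and 3 lower, where 12.4% of all tested genes were higher and 10.6% lower. The log2 fold change, EV-deficient over EV-proficient, was -0.30 ± 0.06 (SE) for H2-K1, -0.41 ± 0.06 for H2-D1 and -0.45 ± 0.08 for B2m (edgeR quasi-likelihood adjusted p = 0.0017, 2.7e-05 and 0.00025). For H2-Q7 it was 2.07 ± 0.46, a 4.19-fold higher level (adjusted p = 0.002), and for H2-Q4 0.47 ± 0.13 (edgeR adjusted p = 0.012). The H2-Q4 call was lost without EV-proficient DMSO replicate 2 (0.39) or without EV-deficient DMSO replicate 2 (0.41). The median was -0.35 over the classical and 0.47 over the non-classical genes, with 0.04 over all tested genes.

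With paclitaxel, 4 of the 9 genes were higher and 1 lower, where 16% of all tested genes were higher and 21.8% lower (21.8% and 15.7% with upper-quartile scaling). The log2 fold change was 0.35 ± 0.06 (SE) for H2-K1, 0.25 ± 0.06 for H2-D1, 0.56 ± 0.08 for B2m and 0.68 ± 0.17 for Nlrc5 (edgeR quasi-likelihood adjusted p = 0.0002, 0.0024, 1.2e-05 and 0.0029). For H2-Q7 it was -1.55 ± 0.35 (edgeR adjusted p = 0.0014), and with H2-Q6 and H2-Q7 counted as 1 feature -0.73 (edgeR adjusted p = 0.039). H2-T23, at 0.10 ± 0.12, was not called, but was at 0.29 without EV-deficient paclitaxel replicate 3, its lowest paclitaxel library (edgeR adjusted p = 0.02). H2-Q4 (0.08 ± 0.12), H2-Q6 (0.25 ± 0.33) and H2-M3 (0.02 ± 0.15) did not pass the test.

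**Figure D5:**
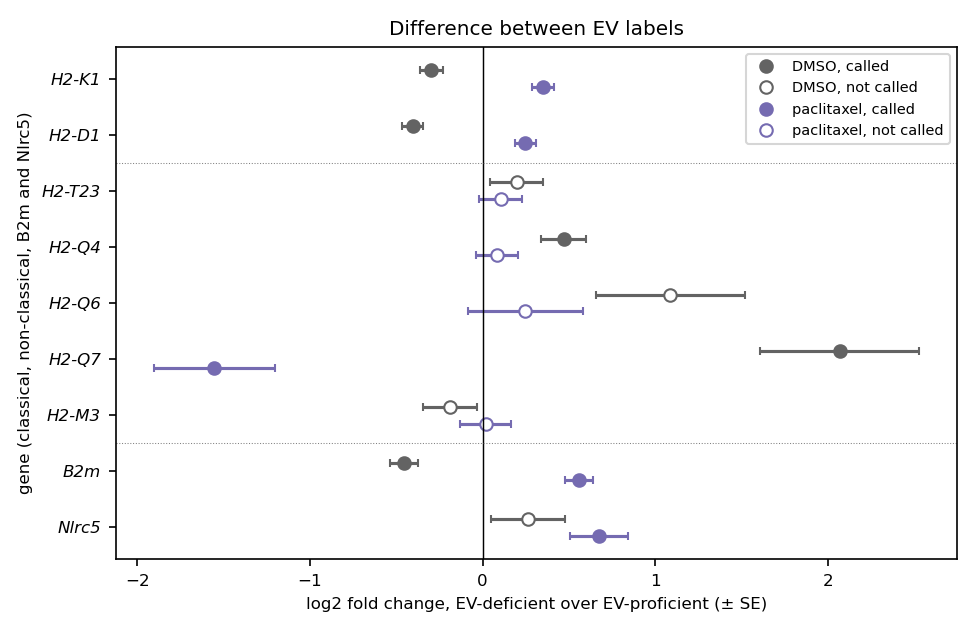
Log2 fold change of EV-deficient over EV-proficient libraries for the 9 genes under each treatment. Points are edgeR estimates, bars SE, open points did not pass the adjusted threshold of 0.05; H2-K1, H2-D1 and B2m lie below 0 with DMSO and above 0 with paclitaxel, and H2-Q7 the other way round.

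Whether the paclitaxel effect itself differed between EV labels was tested as an interaction. The effect was more positive in EV-deficient cells for 3 of the 9 genes and less positive for 1, where 16.9% of all tested genes had a positive and 23.8% a negative interaction (21.2% and 18.1% with upper-quartile scaling). The log2 difference was 0.64 ± 0.09 (SE) for H2-K1, 0.65 ± 0.08 for H2-D1 and 1.01 ± 0.11 for B2m (edgeR quasi-likelihood adjusted p = 7e-06, 2.3e-06 and 3.4e-07). For H2-Q7 it was -3.62 ± 0.58 (edgeR adjusted p = 3e-05). With H2-Q6 and H2-Q7 counted as 1 feature it was -2.38 (edgeR adjusted p = 0.00018). For H2-T23 (-0.09 ± 0.20), H2-Q6 (-0.84 ± 0.54), H2-M3 (0.21 ± 0.22) and Nlrc5 (0.41 ± 0.27) the difference was not called. H2-Q4, at -0.38 ± 0.18, was not called either, but passed without the low-count filter (-0.45), without EV-proficient DMSO replicate 3 (-0.52) and without EV-proficient paclitaxel replicate 3 (-0.45). With the same exchange of the DMSO groups, the interaction was 0.05 for H2-K1, -0.16 for H2-D1, 0.11 for B2m and 0.51 for H2-Q7, none of them called (edgeR adjusted p = 0.77, 0.26, 0.61 and 0.63). Nlrc5 (0.94, edgeR adjusted p = 0.033) was then the 1 gene of the 9 called, with 1739 called of all genes tested. The interaction medians, with the labels as deposited, were 0.65 for the 2 classical, -0.38 for the 5 non-classical and -0.04 for all tested genes. The non-classical median is the value of H2-Q4. Of the 5 non-classical genes 1 was called and 4 were not, and H2-M3 lay above 0.

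The summed leukocyte markers were also lowest in EV-proficient DMSO, as H2-Q7 was, at 1.53 to 2.02 CPM with DMSO and 12.7 to 14.9 with paclitaxel in EV-proficient libraries, and at 13.6 to 13.9 with DMSO and 6.09 to 8.39 with paclitaxel in EV-deficient ones. Csf1r made up 0.944, 11.6, 12.4 and 5.34 CPM of these sums on average, and 3 of the 8 markers reached 1 CPM in a library. Ptprc, the pan-leukocyte marker CD45, averaged 0.396, 1.02, 0.890 and 0.765 CPM in the same order of groups, and the B cell marker Cd79a 0.292, 0.826, 0.373 and 0.776 CPM. Itgam averaged at most 0.278 CPM, and the T cell marker Cd3e and the macrophage marker Adgre1 at most 0.0351 CPM.

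The summed fibroblast markers moved with paclitaxel, from 1.65 to 2.58 CPM over the DMSO libraries to 5.26 to 6.73 CPM in EV-proficient cells, and from 2.75 to 3.53 CPM to 6.99 to 8.84 CPM in EV-deficient cells. Pdgfra made up 1.22 and 4.26 CPM of these sums on average in EV-proficient and 1.77 and 4.23 CPM in EV-deficient cells (DMSO, then paclitaxel). In EV-deficient cells the sums rose by more than Pdgfra did, while Col3a1 averaged 0.230 and 0.214 CPM there. The remaining markers of the 6 are not given singly here. The endothelial sums were 2.39 to 2.61 CPM with DMSO and 2.75 to 3.06 CPM with paclitaxel in EV-proficient cells, and 1.77 to 2.52 CPM and 3.28 to 4.35 CPM in EV-deficient cells. The squamous epithelial sums were 2454 to 2618 CPM and 2665 to 2770 CPM in EV-proficient cells, and 3470 to 3734 CPM and 1976 to 2268 CPM in EV-deficient cells. Of the 7 squamous markers that reached 1 CPM, mean CPM in EV-deficient cells was lower with paclitaxel than with DMSO for 6, from 80.0 against 681.5 for Krt14 and 2.48 against 318.0 for Krt6a to 784.5 against 858.8 for Cdh1, and higher for Epcam, at 535.1 against 438.8. In EV-proficient cells it was lower for 4 and higher for 3, with Krt14 at 190.9 against 191.2, Krt6a at 15.5 against 42.0, Cdh1 at 605.1 against 943.5 and Epcam at 815.9 against 407.2. The mitochondrial share of counts averaged 0.653, 0.878, 0.644 and 1.27% (EV-proficient DMSO and paclitaxel, then EV-deficient DMSO and paclitaxel). The part of all these in the differences between groups was not tested.

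Genes around the members in the same pathway were counted from lists. Each count with paclitaxel stands beside 31.1% of all tested genes higher and 27.1% lower in EV-proficient cells, and 32.4% higher and 30.5% lower in EV-deficient cells. Of 25 further H2 class I genes 12 could be tested, and 8 were higher and 1 lower with paclitaxel in EV-proficient cells, and 9 and 0 in EV-deficient cells, with median log2 fold changes of 1.44 and 1.75. H2-M10.4 had the highest estimate among those called in EV-deficient cells (log2 3.17 ± 0.37 SE, edgeR adjusted p = 1.4e-07). H2-Q5 had at most 1 count in any EV-proficient DMSO library and averaged 0.499 CPM with paclitaxel, at least 6.43-fold higher when 3 counts per library are taken as the floor. H2-M10.2 was the 1 that fell in EV-proficient cells, to at most 3 counts per library, at least 3.54-fold lower by the same floor.

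Of 7 class I-like genes outside the MHC 4 could be tested, and 3 were higher under each label. Mr1, which presents vitamin B metabolites, went from 0.331 ± 0.072 to 4.38 ± 1.1 CPM (SD, n = 3) in EV-proficient and from 0.300 ± 0.079 to 4.70 ± 1.4 CPM in EV-deficient libraries. Its log2 fold change was 3.69 ± 0.31 and 3.95 ± 0.30 (SE; edgeR quasi-likelihood adjusted p = 1.6e-09 and 2.5e-10). Procr, the protein C receptor, fell in EV-deficient cells (log2 -0.77 ± 0.08, edgeR adjusted p = 3.3e-08).

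The 13 genes of peptide loading and the immunoproteasome split in direction. With paclitaxel 7 were higher and 4 lower in EV-proficient, and 8 higher and 4 lower in EV-deficient cells, with median log2 fold changes of 0.49 and 0.89. Tap1, a subunit of the peptide transporter, averaged 0.439 ± 0.15 CPM (SD, n = 3) with DMSO and 7.32 ± 0.86 with paclitaxel in EV-proficient libraries, and 0.380 ± 0.079 and 13 ± 5.6 in EV-deficient libraries. In EV-deficient cells its log2 fold change was 5.10 ± 0.32 (SE; edgeR adjusted p = 1.3e-11). Psmb9, an immunoproteasome subunit, had at most 2 counts in any EV-proficient DMSO library and rose at least 19.2-fold against the floor. Calr, the chaperone calreticulin, fell from 1359 ± 56 to 558.5 ± 11 CPM (SD, n = 3) in EV-proficient and from 1469 ± 60 to 741.2 ± 97 CPM in EV-deficient libraries (log2 -1.28 ± 0.07 and -0.99 ± 0.07 SE, edgeR quasi-likelihood adjusted p = 5.6e-12 and 1.5e-10). Between the EV labels, 10 of the 13 were higher and 0 lower in EV-deficient cells with paclitaxel, where 16% of all tested genes were higher and 21.8% lower, among them Psmb8, another immunoproteasome subunit (log2 1.14 ± 0.25, edgeR adjusted p = 0.0011). With DMSO 0 were higher and 3 lower, where 12.4% of all tested genes were higher and 10.6% lower. For the other lists, the counts higher and lower in EV-deficient cells with paclitaxel were 2 and 2 of the 12 further H2 class I genes, 0 and 1 of the 4 class I-like genes, 4 and 4 of the 16 factors and cofactors, 3 and 2 of the 10 genes of interferon reception and 1 and 0 of the 3 class II genes. With DMSO they were 1 and 1, 0 and 0, 0 and 2, 0 and 5, and 0 and 0 in that order.

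Of 16 transcription factors and cofactors of class I genes, 10 were higher and 3 lower with paclitaxel in EV-proficient cells, and 8 and 5 in EV-deficient cells, with medians of 0.52 and 0.21. Nfyc, a subunit of the factor that binds CCAAT boxes, had the largest fall under both labels (log2 -1.17 ± 0.10 and -1.33 ± 0.10 SE, edgeR adjusted p = 1.5e-09 and 1.2e-10). Ciita, the class II counterpart of Nlrc5, had at most 1 count in EV-proficient DMSO libraries and was at least 2.32-fold higher with paclitaxel against the floor.

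Of 10 genes of interferon reception, 7 were higher and 0 lower with paclitaxel in EV-proficient and 8 and 1 in EV-deficient cells, with medians of 0.43 and 0.97. Jak2, a kinase of the interferon-gamma receptor, had the largest rise in EV-deficient cells (log2 1.81 ± 0.09 SE, edgeR adjusted p = 4.5e-13), and Tyk2, a kinase of the type I receptor, in EV-proficient cells (1.06 ± 0.09, edgeR adjusted p = 4.3e-09). None of the 20 interferon ligand genes passed the low-count filter: 12 had at most 3 counts in every library. The most in any library was 31 counts, for Ifna13, which had 1 to 31 counts in EV-deficient paclitaxel libraries and at most 8 in the other groups. In the same libraries Ifnb1 had 6 to 10 and Ifng 3 to 15 counts. Ifnz had 3 to 10 counts in EV-proficient DMSO and 0 to 6 in EV-proficient paclitaxel libraries, and Ifne up to 6 in EV-deficient DMSO and up to 3 in EV-deficient paclitaxel libraries. Ifnl2 had up to 8 counts in paclitaxel libraries of each label, and Ifnl3 up to 9 in EV-proficient and up to 5 in EV-deficient ones. Of 8 class II genes 3 could be tested and 2 were higher under each label; Cd74, the invariant chain, averaged 0.306, 1.75, 0.186 and 3.50 CPM in the order EV-proficient DMSO and paclitaxel, then EV-deficient DMSO and paclitaxel.

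Across the 12 libraries, the classical genes followed each other (Pearson r of log2 CPM 0.94 for H2-K1 with H2-D1). Of the other members, Nlrc5 lay closest to H2-T23 (0.97) and furthest from H2-K1 (0.59). The classical H2-D1 (0.725) and the non-classical H2-Q7 (0.719) stood side by side between these. The 12 libraries share the treatment and label groups, so these are descriptions. Of all tested genes, those with the pattern most like H2-K1 were Map3k21 (0.97), Samd14 (0.96) and Shox2 (0.96). Those most like Nlrc5 were Ctsa (0.99), Muc20 (0.99), Foxn3 (0.99), Cpm (0.99) and Irf7 (0.99).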

How the data were processed

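Polyadenylated RNA was sequenced from stranded libraries of 12 samples, per the labels' protocols. What the authors deposited is a single table of unnormalized whole-number counts, with 0 columns of other samples. STAR 2.5.0a and the build GRCm38 are named in the submitters' processing notes; the counting program is not given in the sources used here. The 2 rows the authors added (gfp, at 0 counts throughout, and dngfr) were left out of the tests. Counts on genes lacking a symbol were at most 0.102% of any library.

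The test was the quasi-likelihood test of edgeR 4.0.16 in R 4.3.3. Of 35104 genes with a count in some library, filterByExpr (minimum count 10) kept 18108. TMM scaling gave factors of 0.89 to 1.15, and all 12 libraries entered the same fit, with 1 mean for each of the 4 groups. Replicates differed by more than counting noise (chi-square per degree of freedom 4.2 to 27.8 over 12 pairs). Benjamini-Hochberg adjustment covered all tested genes, with a threshold of 0.05 on the adjusted p-value. CPM values use the scaled library sizes, CPM per kilobase divides them by the union of annotated exons (GENCODE M21), and correlations use log2 CPM with a prior count of 2. The averaged paclitaxel effect, an exchange of EV labels between the DMSO groups and the light-to-heavy-chain ratio with another length were added after the data were seen. Scripts were tested on simulated data. The alternatives tried were scaling by median of ratios or by upper quartile, testing without the low-count filter or with at least 1 CPM in 3 libraries, DESeq2 1.42.0 and limma-voom (limma 3.58.1) as tests, H2-Q6 and H2-Q7 summed, a fit of the compared groups alone, a block on replicate number, another gene length, and leaving out each library.

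The members and the pathway lists were chosen with earlier results of these data known. The text names the 9 members whatever their values and, from each list, genes with the largest rise or fall past the threshold, of which 1 is not reported here; Psmb8, Cd74, Ifna13, Ifnb1, Ifne, Ifng, Ifnl2, Ifnl3, Ifnz, Csf1r, Ptprc, Cd79a, Itgam, Cd3e, Adgre1, Pdgfra, Col3a1, Krt5, Krt6a, Krt14, Cdh1, Epcam and Trp63 are named as list members that a statement turns on. For likeness to H2-K1 and Nlrc5, genes were ranked by Pearson r. H2-Ke6, whose symbol fits the pattern for heavy chains but which is not one, was left out. The floor of 3 counts reflects counting error alone, because reads carried no molecular identifiers.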

Additional observations from a re-analysis of the deposited data

Results flagged for a closer look

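The paclitaxel effect on 4 of the 9 genes differed between the EV labels when the difference itself was tested, with an interaction on the log2 scale of 0.64 for H2-K1, 0.65 for H2-D1, 1.01 for B2m and -3.62 for H2-Q7. The dngfr row, which no comparison uses, had counts in all 12 libraries, with means of 8.99 CPM (DMSO) and 3.24 CPM (paclitaxel) under the EV-proficient label and of 2.15 CPM (DMSO) and 10.9 CPM (paclitaxel) under the EV-deficient label. Its order over the groups crosses the EV labels, and its part in the 4 interactions was not tested. Whether a pair of groups carries exchanged EV labels could not be settled. With those of the DMSO groups exchanged, the 4 interactions were 0.05, -0.16, 0.11 and 0.51, in the same order of genes.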

How the results depend on the processing

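The number of the 9 genes called stayed within 1.5 times its value under every alternative run except an exchange of EV labels between the DMSO groups, added after seeing the data. That exchange moved the interaction from 4 to 1 of the 9 genes, with values of -0.16 for H2-D1 and 0.51 for H2-Q7. Of all genes tested 1739 were then called, where 3052 had a positive and 4318 a negative interaction with the labels as deposited. With the exchange all 9 genes were called higher with paclitaxel under both labels, and the share of all tested genes higher in that fit is not reported here. The 9 genes called include H2-K1 (log2 fold change 0.20, edgeR adjusted p = 0.013) and H2-D1 (0.45, adjusted p = 1.7e-06) in EV-proficient cells and H2-Q7 (2.5, adjusted p = 5.6e-05) in EV-deficient cells. Leaving out each library in turn gave 7 to 8 (paclitaxel, EV-proficient), 8 to 8 (paclitaxel, EV-deficient), 4 to 5 (EV labels, DMSO), 5 to 6 (EV labels, paclitaxel), 4 to 5 (interaction) and 9 to 9 genes (averaged effect). With the replicate block the counts were 7, 8, 6, 5, 4 and 9 in that order, H2-Q6 being called with DMSO (1.12, edgeR adjusted p = 0.044). Same-numbered libraries correlated between -0.0812 and 0.097 in their deviations from group means. The labels do not say what a number marks. Whether same-numbered libraries share a batch could not be settled with 3 libraries per group. Upper-quartile scaling moved the median of all genes by 0.183 (paclitaxel, EV-deficient), 0.123 (interaction) and 0.122 (averaged effect).

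With H2-Q6 and H2-Q7 summed, the difference between EV labels with paclitaxel was -0.73 (edgeR adjusted p = 0.039), against 0.25 for H2-Q6 alone, and the same difference with DMSO was 1.65 (adjusted p = 0.0014), against 1.09 for H2-Q6 alone. The cause was not tested. With the longest transcript as length, the classical share was 96.8, 90.6, 95.8 and 92.0% (EV-proficient DMSO and paclitaxel, EV-deficient DMSO and paclitaxel). A fit of only the groups compared was not made for the interaction and the averaged effect, which need all 12 libraries. The low counts of H2-Q6 and H2-Q7 limit their precision.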
